A study of Mus musculus with 7 samples.

Results

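The mitochondrially encoded RNAs are the transcripts of the small circular genome inside mitochondria. They were chosen by name, as all genes of the mouse annotation whose symbol starts with mt-, and numbered 37 of the 42689 genes matched in the libraries. The set held 2 ribosomal RNAs, 13 messenger RNAs and 22 transfer RNAs. Membership by name used no measured value, though the genes were chosen with earlier results of these data known.

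RNA was sequenced from 7 libraries of hindlimb tendon of mice on a C57BL/6 background. The 3 contralateral libraries came from the intact right leg, and the 2 tenotomy libraries from the cut left leg, of mice that received both a burn and a tendon cut and were sampled 3 weeks later. The burn was a partial-thickness scald of the back made with a metal block at 60 °C for 18 s over 30% of the body surface. The cut went through the Achilles tendon at its midpoint in the same operation, under isoflurane, and buprenorphine was given for pain. The 2 uninjured libraries came from wild-type mice with neither burn nor tenotomy. Contralateral tissue is therefore not tissue of an untreated animal. No age, sex or animal number is given, and the labels do not say which libraries came from separate animals, so p-values measure only the spread between these samples.

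Mitochondrial DNA is transcribed from both strands into long precursors that run through many genes. In most places a tRNA lies between neighbouring genes, and cutting out the tRNAs releases the rRNAs and mRNAs. The rRNAs build the mitochondrial ribosome, the tRNAs serve translation there, and every mitochondrial mRNA encodes a subunit of a complex of oxidative phosphorylation (OXPHOS). Cells with a high oxidative demand, such as muscle fibres, are rich in these RNAs, whereas resting tendon is a sparsely cellular tissue.

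Neighbouring mitochondrial genes can share bases, which limits how reads are assigned to them. The end of mt-Atp8 and the start of mt-Atp6, which both encode subunits of ATP synthase, share 43 bases. These are shown in capitals, on the plus strand of the GRCm38 build, with mt-Atp8 at chrM:7890-7969 and mt-Atp6 at chrM:7927-8006, both in coding exons of these intronless genes.
mt-Atp8: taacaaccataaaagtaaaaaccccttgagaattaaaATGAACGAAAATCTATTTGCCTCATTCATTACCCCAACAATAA
mt-Atp6: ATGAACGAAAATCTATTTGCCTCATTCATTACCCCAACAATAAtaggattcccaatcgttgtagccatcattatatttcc

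A larger limit came from nuclear copies of mitochondrial DNA. On chromosome 1, between 24611535 and 24616197 on the minus strand, 7 annotated pseudogenes share over 90% of their 31-base words with mt-Co1, mt-Co2, mt-Atp6, mt-Co3, mt-Nd3, mt-Nd4l or mt-Nd4. The copy of mt-Co2, Gm28661, did not differ from it in any of the 681 aligned bases, and mt-Co2 has 0% of words of its own. Both sequences are shown for the first 60 bases, at chrM:7013-7072 on the plus strand and chr1:24615506-24615565 on the minus strand, because no read from this stretch can tell them apart.
mt-Co2: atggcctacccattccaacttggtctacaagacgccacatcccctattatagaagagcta
Gm28661: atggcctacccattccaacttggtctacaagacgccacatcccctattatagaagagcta

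The copy of mt-Nd3, Gm28438, differs at 1 of 345 aligned bases, T3C, counted from 1 at the 5′ end of mt-Nd3. That base is in capitals in the first 32 bases, at chrM:9459-9490 on the plus strand and chr1:24613088-24613119 on the minus strand.
mt-Nd3: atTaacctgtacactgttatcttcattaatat
Gm28438: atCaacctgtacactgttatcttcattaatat

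These copies held much of the counts of their pairs in the deposited estimates. Gm28661 held between 70.7% and 92.3% of the counts of the mt-Co2 pair in a library, and Gm28438 between 80.7% and 90.2% of those of the mt-Nd3 pair. The share of the mt-Co3 copy Gm28437 was between 5.29% and 21.0%, and that of the mt-Co1 copy Gm29216 between 7.79% and 11.2%. The copies of mt-Nd4l and mt-Nd4 held 0 counts in every library. For mt-Atp6 the split moved with the samples. Its copy Gm10925 held 17.9% and 5.86% of the pair's counts in the tenotomy libraries and 17.8% in uninjured replicate 1, but at most 0.0366% in the contralateral libraries and uninjured replicate 2. Levels of these 7 mRNAs are therefore also given with the counts of the copy added to those of the mitochondrial gene.

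Libraries held between 25927171 and 36725106 estimated counts. Of these, 5 non-mitochondrial features, Gm42418 and Lars2 foremost, took most, and between 3459626 and 5297466 counts lay outside them and the mitochondrial genes. Both rRNAs and all 13 mRNAs had at least 201 counts in every library. Of the 22 tRNAs, 19 had between 0 and 15 counts and were removed by the filter on low counts, which leaves 18 of the 37 genes in the tests. Levels are in CPM, counts set to a common library total, after TMM scaling (trimmed mean of M-values) between libraries, unless another scale is named.

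The 2 uninjured libraries stood apart from each other, and skeletal muscle markers moved with this. The summed level of 20 muscle markers was between 23934 and 26600 CPM in contralateral, 2080 and 2086 in tenotomy, and 2656 and 18019 in uninjured replicates 1 and 2. None of the 20 was at 0 in any library. All 20 were called lower in tenotomy than in contralateral tissue, beside 15.4% of all features. All 10 tendon markers were detected in every library, with sums between 888 and 1247 in contralateral, 4865 and 4883 in tenotomy, and 4466 and 3974 in uninjured replicates 1 and 2. Macrophage and leukocyte markers summed to between 19.4 and 25.2 CPM in contralateral, 92.9 and 96.5 in tenotomy, and 99.1 and 24.6 in uninjured tissue in the same order, and none of the 7 was at 0. Cartilage markers summed to between 3.38 and 4.27 CPM in contralateral, 221 and 226 in tenotomy, and 68.3 and 5.24 in uninjured tissue, and Matn1 was at 0 in at least 1 library. Adipose markers summed to between 118 and 147 CPM in contralateral, 58.1 and 58.3 in tenotomy, and 55.6 and 159 in uninjured tissue, so that the tenotomy libraries and uninjured replicate 1 were low here too. Of the 6, Ucp1 was at 0 in at least 1 library, and 2 of 5 tested were called lower at the tenotomy site. Called higher there were 6 of 10 tendon markers, 6 of 7 macrophage and leukocyte markers and 4 of 5 tested cartilage markers. Of all 16028 features, 2178 were called higher. The part of these markers in the results below was not tested.

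Mitochondrial RNA of each class was lower at the tenotomy site than in the contralateral tendon. The mRNAs together reached 11238, 14390 and 16514 CPM in the contralateral libraries and 2331 and 2380 CPM in the tenotomy libraries, a 5.96-fold difference of means. The rRNAs reached 82135, 103444 and 117701 CPM against 24741 and 23233 CPM, a 4.21-fold difference. The tRNAs reached 15.8, 17.6 and 22.4 CPM against 5.11 and 5.67 CPM, a 3.45-fold difference. No contralateral library overlapped with a tenotomy library in any class. In bulk tissue, fewer cells rich in mitochondria and less mitochondrial RNA per cell cannot be told apart.

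As shares of all estimated counts, rRNA made up 8.45%, 10.3% and 10.4% of the contralateral libraries and 2.60% and 2.56% of the tenotomy libraries. The share of mRNA was 1.16%, 1.43% and 1.45% against 0.245% and 0.262%. On this scale, which uses no TMM factor, the groups did not overlap either.

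Gene by gene, 16 of the 18 tested genes were called lower at the tenotomy site and 0 higher by edgeR's quasi-likelihood test at an adjusted p under 0.05. Among all 16028 features tested, 15.4% were called lower. Both rRNAs, all 13 mRNAs and 1 of the 3 tested tRNAs were among those called. The mRNAs changed by between -2.92 and -2.0 on the log2 scale, with a median of -2.56, beside a median of -0.00 over all features. In each of the 18 genes both tenotomy libraries lay below all contralateral ones, a pattern found in 31.8% of all features. For mt-Ts1 this gives no support, as it passed the filter on low counts only through contralateral libraries.

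In fits that also hold the uninjured libraries, these calls rested on all 5 libraries compared. Without any single contralateral or tenotomy library edgeR called 0 members and 0 features of any kind, and the adjusted p of the 16 genes then lay between 0.0506 and 0.214. The contralateral over tenotomy ratio stayed between 5.44 and 6.56 for summed mRNA and between 3.87 and 4.61 for summed rRNA. Between 4538 and 6148 features were still at an unadjusted p under 0.05 in those fits. When only the 2 groups were fitted, without the uninjured libraries, all 18 tested genes were called lower, beside 24.1% of all features in that fit. Of these genes, mt-Te and mt-Ts1 passed the filter on low counts there only through the contralateral libraries, where they are high. Median dispersion, the spread between libraries of a group beyond counting error, was 0.0272 in the fit of all 7 libraries. It was 0.0087 in that of these 2 groups.

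Among the rRNAs, mt-Rnr1 (chrM:70-1024) forms the small subunit of the mitochondrial ribosome and mt-Rnr2 (chrM:1094-2675) the large one. The level of mt-Rnr1 was 27406, 33273 and 38615 CPM in contralateral, 7655 and 7110 in tenotomy, and 8786 and 25409 in uninjured tissue. That of mt-Rnr2 was 54729, 70171 and 79087 CPM in contralateral, 17085 and 16123 in tenotomy, and 17407 and 53166 in uninjured tissue. Tenotomy libraries and uninjured replicate 1 were low for both, and uninjured replicate 2 lay just under the contralateral libraries. Tenotomy over contralateral, mt-Rnr1 changed by -2.16 ± 0.53 (log2, SE, edgeR adjusted p = 0.0231) and mt-Rnr2 by -2.03 ± 0.56 (edgeR adjusted p = 0.0334).

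**Figure D1:**
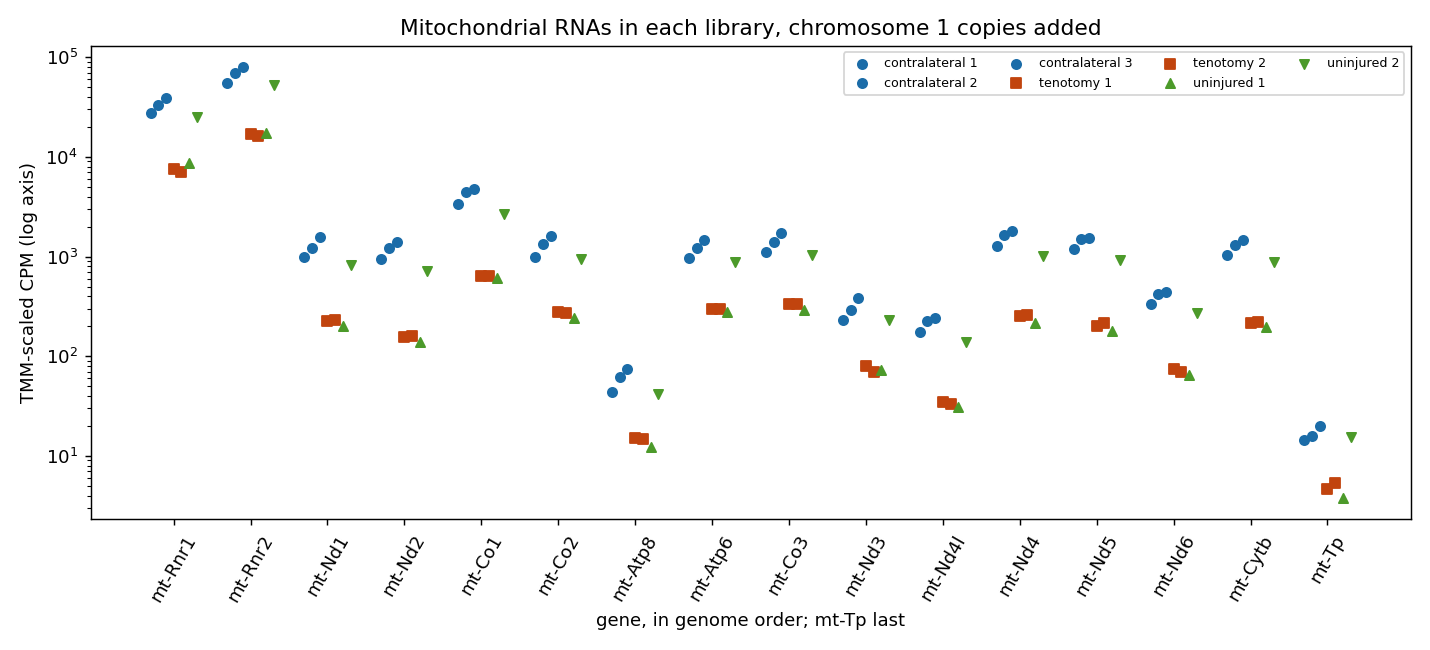
Level of both rRNAs, the 13 mRNAs and mt-Tp in each of the 7 libraries, in TMM-scaled CPM on a log axis, with the counts of the chromosome 1 copies added to their mitochondrial genes. Circles are contralateral, squares tenotomy, upward triangles uninjured replicate 1 and downward triangles uninjured replicate 2. Squares lie below all circles for each gene, and the 2 uninjured libraries lie far apart.

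The mRNAs of complex I, the NADH dehydrogenase that takes electrons from NADH, are mt-Nd1 to mt-Nd6 and mt-Nd4l. The largest change among all mRNAs was that of mt-Nd2 (chrM:3914-4951), whose level was 950, 1229 and 1408 CPM in contralateral, 155 and 160 in tenotomy, and 138 and 710 in uninjured tissue. The tenotomy libraries lay 7.59-fold lower than the contralateral ones in the fit, a log2 change of -2.92 ± 0.66 (SE, edgeR adjusted p = 0.0192). For mt-Nd5 (chrM:11742-13565), the levels were 1194, 1509 and 1548 CPM in contralateral, 203 and 214 in tenotomy, and 179 and 930 in uninjured tissue, with a change of -2.77 ± 0.65. In both genes uninjured replicate 1 lay below the tenotomy libraries.

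The level of mt-Nd4 (chrM:10167-11544) was 1267, 1633 and 1825 CPM in contralateral, 251 and 261 in tenotomy, and 218 and 1005 in uninjured tissue. The level of mt-Nd4l (chrM:9877-10173), which overlaps the start of mt-Nd4, was 173, 224 and 243 CPM in contralateral, 34.4 and 33.5 in tenotomy, and 30.6 and 138 in uninjured tissue. The changes of this pair, -2.62 ± 0.62 and -2.65 ± 0.59, differed by less than their errors. For mt-Nd1 (chrM:2751-3707), which follows the rRNAs, the level was 1000.5, 1231 and 1560 CPM in contralateral, 228 and 229.5 in tenotomy, and 202 and 817 in uninjured tissue, a change of -2.47 ± 0.58. For mt-Nd3 (chrM:9459-9806), with its copy added, the level was 233, 292 and 384 CPM in contralateral, 79.9 and 69.0 in tenotomy, and 73.2 and 233 in uninjured tissue. The change of mt-Nd3 was -2.01 ± 0.58 as deposited and -2.03 with the copy added.

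The only mRNA on the minus strand is mt-Nd6 (chrM:13552-14070). Its level was 332, 419 and 445 CPM in contralateral, 73.8 and 68.8 in tenotomy, and 65.3 and 271 in uninjured tissue, a change of -2.48 ± 0.56 (SE, edgeR adjusted p = 0.0194). This lies near the middle of the changes of the mRNAs. Whether strand was used in counting is not given in the sources used here, so reads from the precursor of the opposite strand cannot be told apart from mt-Nd6.

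In complex III, which passes electrons to cytochrome c, mt-Cytb (chrM:14145-15288) is the only mitochondrially encoded subunit. Its level was 1036, 1318 and 1452 CPM in contralateral, 213 and 218 in tenotomy, and 197 and 892 in uninjured tissue, a change of -2.56 ± 0.60 (SE, edgeR adjusted p = 0.0212).

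The mRNAs of complex IV, cytochrome c oxidase, encode its catalytic core. The level of mt-Co1 (chrM:5328-6872) with its copy added was 3385, 4400.3 and 4725 CPM in contralateral, 639.6 and 644 in tenotomy, and 603 and 2696 in uninjured tissue. The change of mt-Co1 was -2.72 ± 0.63 as deposited and -2.70 with the copy added. The level of mt-Co3 (chrM:8607-9390) with its copy added was 1119, 1404 and 1718 CPM in contralateral, 333 and 336 in tenotomy, and 292 and 1029 in uninjured tissue, with a change of -2.08 against -2.24 ± 0.57 as deposited.

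The gene most affected by its copy was mt-Co2 (chrM:7013-7696). As deposited, its level was 150.1, 142 and 469.5 CPM in contralateral, 35.8 and 39.9 in tenotomy, and 18.6 and 97.2 in uninjured tissue, so contralateral replicate 3 stood far above the other two. With the identical Gm28661 added, the level was 1001, 1345 and 1600.4 CPM in contralateral, 277 and 272 in tenotomy, and 242 and 945 in uninjured tissue, and that gap was much smaller. The change moved from -2.74 ± 0.82 (SE, edgeR adjusted p = 0.0421) to -2.26 (edgeR adjusted p = 0.0244).

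The mRNAs of ATP synthase, which makes ATP from the proton gradient, were among those with the smallest changes. The level of mt-Atp8 (chrM:7766-7969) was 43.4, 61.4 and 73.9 CPM in contralateral, 15.2 and 14.6 in tenotomy, and 12.3 and 41.9 in uninjured tissue, a change of -2.0 ± 0.50 (SE, edgeR adjusted p = 0.0248). The level of mt-Atp6 (chrM:7927-8607) with its copy added was 966, 1230 and 1461 CPM in contralateral, 295 and 298 in tenotomy, and 279 and 875 in uninjured tissue, a change of -2.04 against -2.22 ± 0.55 as deposited.

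**Figure D2:**
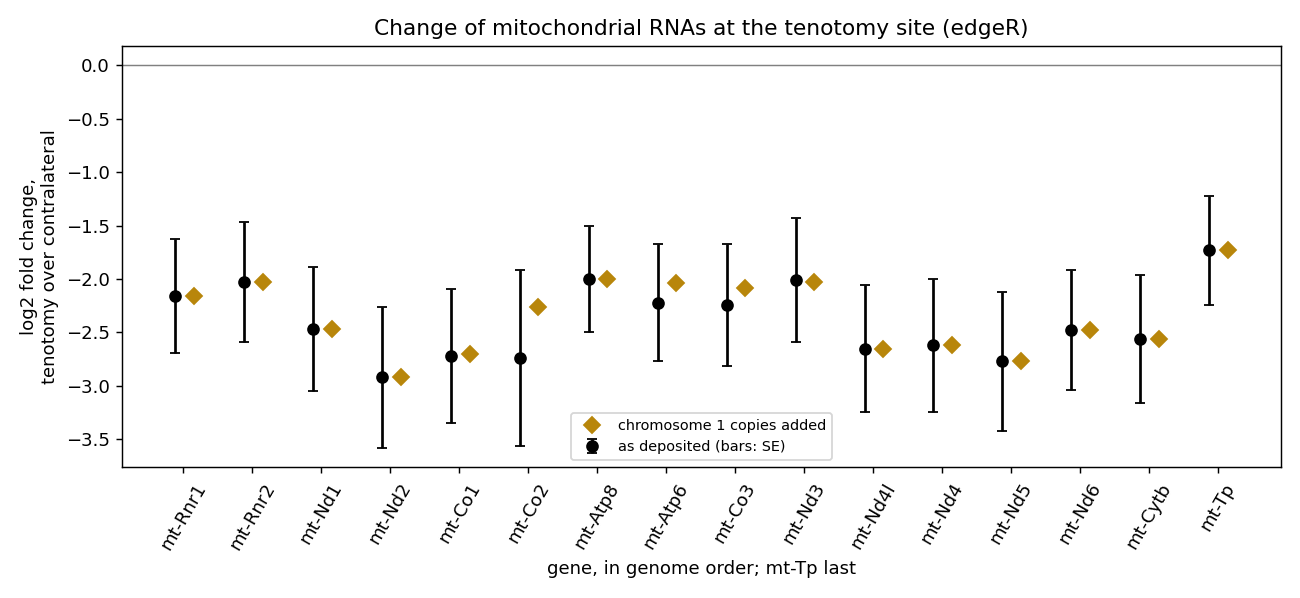
Log2 fold change of tenotomy over contralateral tissue from edgeR for both rRNAs, the 13 mRNAs and mt-Tp. Black points with bars of 1 SE are the counts as deposited, and yellow diamonds have the chromosome 1 copies added. All points lie below 0, from -2.92 for mt-Nd2 to -1.73 for mt-Tp, and mt-Co2 moved most with its copy.

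Levels per transcript length, as deposited in the unit TPM, allow the genes to be ordered within a group. With the copies added, mt-Rnr2 and mt-Rnr1 led in contralateral tissue at 7139 ± 877 and 6615 ± 629 TPM (SD, n = 3). These spreads between libraries overlap, but within a library mt-Rnr2 stood at 1.05, 1.11 and 1.07 times mt-Rnr1. Among the mRNAs mt-Co1 was highest by summed TPM at 620.4 ± 81.9. It was followed by mt-Co2 at 430.4 ± 63.4, mt-Atp6 at 399.8 ± 47.7 and mt-Co3 at 373 ± 43.5. These last 3 lay within their spread between libraries but kept this order in each contralateral library. The lowest was mt-Nd5 at 126 ± 16.7 TPM. In tenotomy tissue mt-Co1 was still highest at 94.5 ± 6.37 TPM (SD, n = 2), with mt-Atp6 at 91.9 ± 6.50 within its spread. There too mt-Nd5 was lowest, at 18.1 ± 2.06. The place of mt-Co1 rests in part on adding the TPM of a copy of 492 bases to that of a gene of 1545 bases. As deposited, mt-Co1 was at 412.5 ± 55.4 TPM in contralateral tissue, within its spread of mt-Atp6 at 399.8 ± 47.7. In tenotomy tissue as deposited it was at 60.8 ± 5.00 TPM, below mt-Atp6 at 81.2 ± 13.6 and mt-Co3 at 70.1 ± 0.112. Effective lengths of the mRNAs, which divide these values, reached down to 38.4 bases for the shortest one, so TPM of mt-Atp8, mt-Nd4l and mt-Nd3 are less certain.

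The make-up of the mRNA pool differed between tenotomy and contralateral libraries. With copies added, mt-Co3 was 8.81%, 8.62% and 9.32% of mitochondrial mRNA counts in contralateral and 11.9% in both tenotomy libraries, and mt-Atp6 was 7.60%, 7.55% and 7.92% against 10.5% and 10.6%. The shares of mt-Co2, mt-Atp8 and mt-Nd3 were also higher in both tenotomy libraries than in all contralateral ones. These 5 genes lie next to one another on the genome, with tRNA genes between some of them. Of these, mt-Co2, mt-Atp6, mt-Co3 and mt-Nd3 have chromosome 1 copies, as do mt-Co1, mt-Nd4l and mt-Nd4, whose shares were lower. What part the copies have in this was not tested.

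Shares were lower in both tenotomy libraries than in all contralateral ones for mt-Co1, mt-Nd2, mt-Nd4l, mt-Nd4, mt-Nd5 and mt-Cytb. The share of mt-Nd2 was 7.48%, 7.54% and 7.63% in contralateral and 5.54% and 5.67% in tenotomy, and that of mt-Co1 was 26.7%, 27.0% and 25.6% against 22.9% in both. Those of mt-Nd1 and mt-Nd6 overlapped between the groups. Uninjured replicate 1 had 11.5% mt-Co3 and 5.47% mt-Nd2, near the tenotomy libraries, while uninjured replicate 2 had 9.72% and 6.71%. Shares add up to the whole, so they show unequal change and not which gene moved, and no test was made on them. Without the copies, the shares of mt-Co2, mt-Nd4l and mt-Cytb overlapped between the groups, and that of mt-Nd1 was higher in both tenotomy libraries. The directions given for mt-Atp8, mt-Atp6, mt-Co3, mt-Nd3, mt-Nd2, mt-Co1, mt-Nd4 and mt-Nd5 were the same without them.

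**Figure D3:**
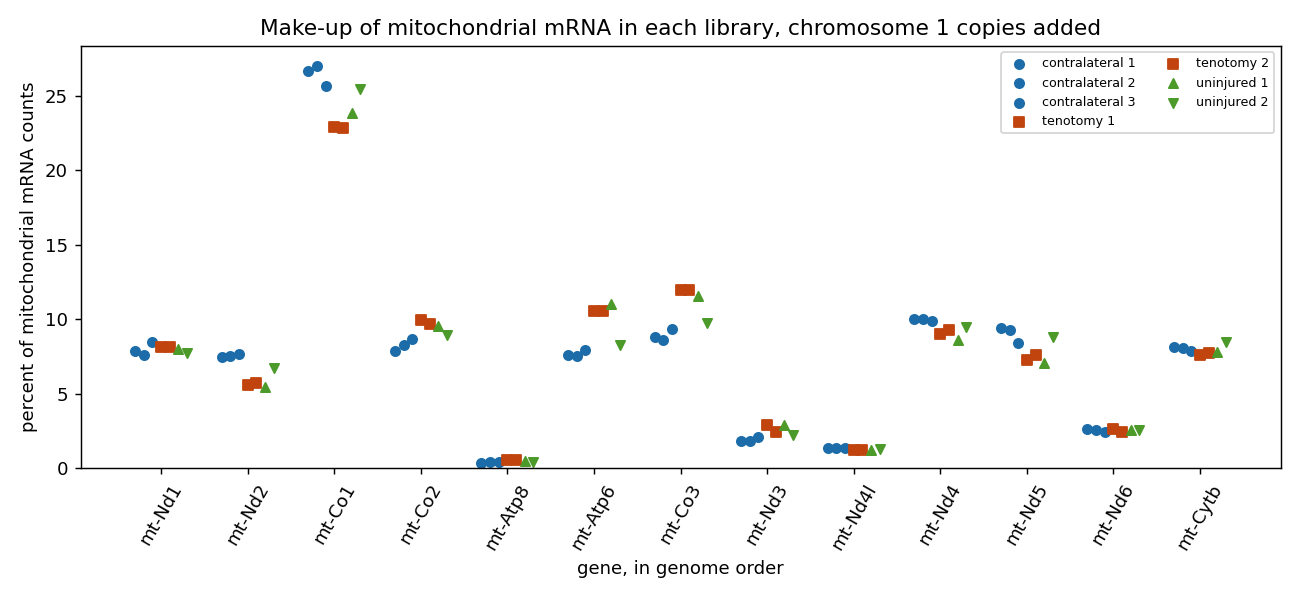
Share of each gene in the mitochondrial mRNA counts of each of the 7 libraries, in percent, with the chromosome 1 copies added and genes in genome order. Symbols are as in the plot of levels by library. From mt-Co2 to mt-Nd3 the tenotomy squares lie above the contralateral circles, and for mt-Nd2, mt-Co1 and mt-Nd5 they lie below.

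The ratio of rRNA to mRNA was higher in both tenotomy libraries than in all contralateral ones, with no test made on it. For each mRNA count there were 7.31, 7.19 and 7.13 rRNA counts in contralateral, 10.6 and 9.76 in tenotomy, and 12.7 and 8.53 in uninjured tissue. With copies added the ratio was 6.47, 6.35 and 6.38 against 8.84 and 8.24, and 10.4 and 7.42 in uninjured tissue. Contralateral libraries lay close together and below all others. The ratio of mt-Rnr2 to mt-Rnr1 counts was 2.00, 2.11 and 2.05 in contralateral, 2.23 and 2.27 in tenotomy, and 1.98 and 2.09 in uninjured tissue. Both tenotomy libraries were above the rest in that ratio by a small margin.

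The tRNAs were scarcely captured, with lengths between 59 and 75 bases and effective lengths between 18.3 and 33.8 bases. A single one, mt-Tp, the proline tRNA at chrM:15356-15422 on the minus strand, held between 88.1% and 95.3% of all tRNA counts. The 3 tRNAs with enough counts to be tested are printed whole. The glutamate tRNA mt-Te lies at chrM:14071-14139 and mt-Ts1, a serine tRNA, at chrM:6870-6938.
mt-Tp: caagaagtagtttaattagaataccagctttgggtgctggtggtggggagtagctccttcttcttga
mt-Te: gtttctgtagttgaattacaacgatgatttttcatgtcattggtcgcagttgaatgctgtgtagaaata
mt-Ts1: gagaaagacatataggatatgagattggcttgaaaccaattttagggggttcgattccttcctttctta

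In estimated counts, mt-Tp had 386, 553 and 638 in contralateral, 170 and 162 in tenotomy, and 106 and 447 in uninjured libraries. Its level was 14.5, 15.7 and 19.7 CPM against 4.62 and 5.40 CPM, a change of -1.73 ± 0.51 (log2, SE, edgeR adjusted p = 0.0407), the smallest among the 16 genes called. For mt-Te the counts were 13, 12 and 21 in contralateral, 5 and 0 in tenotomy, and 1 and 16 in uninjured libraries, with an edgeR adjusted p of 0.0999 between tenotomy and contralateral tissue. For mt-Ts1 they were 6, 12 and 12, then 3 and 0, then 0 and 6, with an edgeR adjusted p of 0.0959. A count of 0 allows up to 3. In the fit of only these 2 groups both were called lower, with edgeR adjusted p of 0.00757 for mt-Te and 0.0105 for mt-Ts1. Both passed the filter on low counts in that fit only through the contralateral libraries, where they are high. These calls therefore add no support for a lower level.

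All 3 tested tRNAs are encoded on the minus strand, which carries 8 of the 22, and the limit on strand given for mt-Nd6 holds for them too. Over the 7 libraries the 8 minus-strand tRNAs held 2644 counts, 182 of them outside mt-Tp, and the 14 plus-strand tRNAs held 93. Of all tRNAs, mt-Tv had 0 counts in every library. For 1000 mRNA counts there were 1.41, 1.22 and 1.36 tRNA counts in contralateral, 2.19 and 2.38 in tenotomy, and 2.02 and 1.86 in uninjured libraries. The contralateral libraries were lowest.

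Uninjured tissue was measured in 2 libraries that differed severalfold in mitochondrial RNA. The mRNAs reached 2066 CPM in replicate 1 and 9211 CPM in replicate 2, a ratio of 4.46, and the rRNAs 26193 and 78574 CPM, a ratio of 3.00. As a share of all counts, mRNA was 0.217% (95% Wilson interval 0.215 to 0.219) and 0.840% (0.837 to 0.843), and the intervals cover counting error only. All 15 rRNAs and mRNAs were more than 2-fold higher in replicate 2, against 10.4% of all features, with no test since each side is 1 library.

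As deposited, the mRNA ratios between the uninjured libraries ranged from 3.42 for mt-Atp8 to 5.23 for mt-Co2. With copies added they ranged from 3.14 for mt-Atp6 to 5.21 for mt-Nd5, and mt-Co2 stood at 3.91, mt-Nd3 at 3.18 and mt-Nd2 at 5.13. The rRNAs were lower, with mt-Rnr1 at 2.89 (95% counting interval 2.88 to 2.91) and mt-Rnr2 at 3.05 (3.04 to 3.06). The ratio of mt-Tp was 4.04 (3.26 to 5.04). Replicate 2 thus exceeded replicate 1 more in mRNA than in rRNA. Replicate 1 lay below both tenotomy libraries in all 13 mRNAs as deposited, in 12 with copies added, and above both in the 2 rRNAs. Replicate 2 lay above both tenotomy libraries in all 15, and below all 3 contralateral libraries in all 15 as deposited.

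No member passed the test between uninjured tissue and either other group. Between tenotomy and uninjured tissue edgeR called 0 of the 18 members, as it called 0% of all features, with adjusted p between 0.468 and 0.775. No member was at an unadjusted p under 0.05, against 1741 of all features. DESeq2 called 0 members and, of all features, 140 lower and 5 higher, and limma-voom called 0 members. The mRNAs differed by -1.43 to -0.49 on the log2 scale as deposited. With copies added mt-Nd3 went from -0.49 to -1.04 and mt-Co2 from -0.61 to -1.11, and the smallest difference was then -0.86 for mt-Atp8. The outcome turned on which uninjured library was used. Without replicate 1, 16 of 19 members tested were called lower in tenotomy, beside 13.7% of all features. Without replicate 2 the difference of 16 members changed sign and 0 were called. With the series of the title numbers as a covariate 14 members changed sign. Uninjured replicate 2 is alone in its series, so that fit sets replicate 2 aside and is no separate check.

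Between contralateral and uninjured tissue edgeR also called 0 of 18 members and 0% of all features, with adjusted p of the members between 0.232 and 0.664. At an unadjusted p under 0.05 there were 8 mRNAs and 3084 features. DESeq2 called 1 member and limma-voom 0, and of all features DESeq2 called 81 higher and 142 lower. The mRNAs were higher in contralateral tissue by 1.14 to 2.13, and the rRNAs by 0.95 each, without passing the test. The largest difference, 2.13 for mt-Co2, the member that DESeq2 called (adjusted p = 0.0433), was 1.15 with its copy added. That of mt-Nd3 went from 1.52 to 0.99. Without uninjured replicate 2, 18 of 19 members tested were called higher, beside 16.9% of all features. With the series of the title numbers as a covariate 16 of 18 were called higher, beside 8.39% of all features. In that fit too uninjured replicate 2 is alone in its series, so the fit sets replicate 2 aside and is no separate check. The 3 comparisons share libraries pairwise, so they are not independent of each other.

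Numbers in the sample titles fall into 3 series, which no label calls a batch. The first holds the contralateral libraries and tenotomy replicate 1, the next tenotomy replicate 2 and uninjured replicate 1, and the last uninjured replicate 2. Within the first, the contralateral mean was 6.03 times tenotomy replicate 1 in mRNA and 4.09 times in rRNA. Within the next, tenotomy replicate 2 was 1.15 times uninjured replicate 1 in mRNA and 0.887 times in rRNA. The series of uninjured replicate 2 holds no other library. The ratio within the first series rests on 1 tenotomy library and shares all its libraries with the overall difference. It therefore does not test for an effect of series.

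Nuclear genes that serve mitochondria were read from lists of pathway members in the same fit, in which 15.4% of all features were called lower. Of 78 tested nuclear OXPHOS subunits, 73 were called lower at the tenotomy site and 0 higher, with a median of -2.02. The muscle isoform Cox6a2 had 38.5, 49.3 and 55.9 CPM in contralateral and 2.96 and 2.80 in tenotomy tissue, a change of -4.05 ± 0.78 (SE, edgeR adjusted p = 0.0167). Cox5a, another cytochrome c oxidase subunit, changed by -2.80 ± 0.58 (edgeR adjusted p = 0.0167). Summed nuclear OXPHOS genes reached 1183, 1541 and 1596 CPM in contralateral, 349 and 335 in tenotomy, and 381 and 1168 in uninjured libraries. The order of group means was that of the mitochondrial mRNAs. By library, uninjured replicate 1 lay above both tenotomy libraries here, but below both in summed mitochondrial mRNA.

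Mitochondrial mRNA with copies added was 10.7, 10.6 and 11.6 times the summed nuclear OXPHOS level in contralateral, 8.02 and 8.41 times in tenotomy, and 6.65 and 9.06 times in uninjured libraries. Against the summed muscle markers it was 0.531, 0.663 and 0.693 times in contralateral, 1.34 and 1.35 times in tenotomy, and 0.953 and 0.587 times in uninjured libraries. Mitochondrial mRNA thus differed between tenotomy and contralateral tissue by more than nuclear OXPHOS mRNA and by less than the muscle markers.

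**Figure D4:**
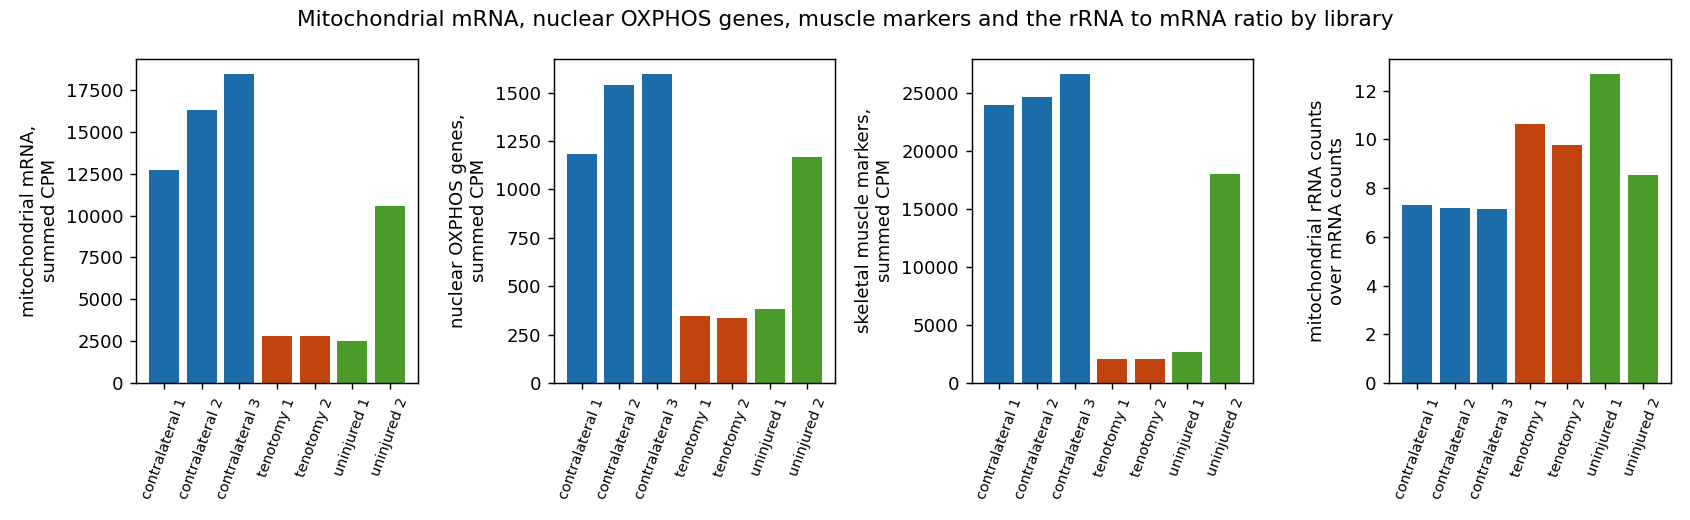
Bars from 0 for each of the 7 libraries, showing summed mitochondrial mRNA with copies added, summed nuclear OXPHOS genes and summed skeletal muscle markers, each in TMM-scaled CPM, and the ratio of mitochondrial rRNA to mRNA counts as deposited. Blue is contralateral, red tenotomy and green uninjured. Tenotomy libraries and uninjured replicate 1 are low in the first 3 panels and high in the last.

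Proteins of the mitochondrial ribosome are encoded in the nucleus and assemble on the rRNAs. Of 78 tested ribosomal protein genes, 43 were called lower at the tenotomy site and 0 higher, with a median of -0.86 beside -2.16 and -2.03 for the rRNAs. Mitochondrial rRNA was 471, 501 and 523 times their summed level in contralateral, 223 and 221 times in tenotomy, and 234 and 446 times in uninjured libraries.

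Of the genes that transcribe and copy mitochondrial DNA, 6 of 19 tested were called lower and 0 higher, with a median of -0.49. Among them were the RNA polymerase Polrmt at -0.89 ± 0.27 (edgeR adjusted p = 0.0430) and the helicase Twnk at -0.99 ± 0.31 (edgeR adjusted p = 0.0461). The DNA-packaging factor Tfam, at -0.78 ± 0.25 (edgeR adjusted p = 0.0531), and the DNA polymerase Polg, at -0.12 ± 0.15 (edgeR adjusted p = 0.592), did not pass the test.

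In RNA processing, stability and decay, 8 of 26 were called lower and 0 higher, with a median of -0.54. Lrpprc, which binds and stabilises mitochondrial mRNAs, had 12.1, 15.7 and 15.1 CPM in contralateral and 4.34 and 4.90 in tenotomy tissue, a change of -1.63 ± 0.37 (edgeR adjusted p = 0.0198). Its partner Slirp, at -0.41 ± 0.15 (edgeR adjusted p = 0.0678), did not pass the test.

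Of the genes that charge mitochondrial tRNAs, 2 of 23 were called lower and 0 higher, with a median of -0.49, and this share is below that of all features. These 2, named after their values were seen, were Qrsl1 at -1.34 ± 0.34 and Kars at -0.67 ± 0.18. The feature annotated as Lars2, the leucyl-tRNA synthetase, is also a dominant feature with 13.3% to 15.3% of all counts. It stood at 0.00 ± 0.42, also chosen after its value was seen. Whether reads at this level come from the synthetase mRNA was not tested.

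Of the regulators of mitochondrial biogenesis, 6 of 11 were called lower and 1 higher, with a median of -1.73. The coactivator Ppargc1a had 7.21, 7.39 and 7.0 CPM in contralateral, 1.20 and 1.25 in tenotomy, and 1.44 and 5.19 in uninjured libraries. Its change was -2.56 ± 0.47 (edgeR adjusted p = 0.0167), close to the median of the mitochondrial mRNAs. The gene called higher, named for that reason, was Pprc1, a related coactivator, at 0.59 ± 0.17 (edgeR adjusted p = 0.0367).

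Of the mitochondrial antioxidant and stress genes, 9 of 15 were called lower and 0 higher, with a median of -0.91. The superoxide dismutase Sod2 changed by -2.19 ± 0.49 and the chaperone Hspa9 by -2.06 ± 0.40. In both other comparisons edgeR called 0 genes of each of these 7 lists, as it called 0% of all features.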

How the data were processed

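The deposited table of each library gives estimated counts and TPM per transcript with length and effective length, per the file headers. Per the file headers these are estimated counts, and their values are neither whole nor scaled between libraries. TPM, as deposited, divide them by effective length. FastQC 0.11.4 and kallisto are named in the submitters' processing notes, which give GRCh38, a human build name, although the tables list mouse transcripts. The annotation release, strand setting and any poly(A) selection or rRNA depletion are not given in the sources used here beyond the name of a TruSeq RNA kit.

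Of 103639 transcripts, 101510 matched GENCODE M21 (GRCm38), all 37 mitochondrial ones with the same version. The other 2129 were kept as single features. Counts were summed per gene and rounded. All 44818 features, 7 libraries and 3 group means entered 1 edgeR 4.0.16 fit (R 4.3.3; filterByExpr with a minimum count of 10, TMM, quasi-likelihood, Benjamini-Hochberg over the 16028 kept, threshold 0.05). In simulated counts for tenotomy against contralateral tissue, 179 of 200 genes changed by 2 on the log2 scale were recovered over 16028 genes, with 6 others called. Against uninjured tissue 172 were recovered and 19 others called. The simulation gave both uninjured libraries the same means, unlike the data, so these rates need not hold for the real libraries. Pseudogenes were taken as copies where over 90% of their 31-base words lie in a mitochondrial transcript. Class sums, shares and ratios had no test.

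Alternatives were RLE and upper quartile scaling, TMM without mitochondrial and dominant features, DESeq2 1.42.0, limma-voom (limma 3.58.1), no filter, fits of only 2 groups, title series as a covariate, length-scaled TPM, a test against a 1.5-fold change, other scales for class sums and leaving out each library. Adding the copies was chosen after seeing the data. All rRNAs and mRNAs are named, with the 3 most abundant tRNAs, per list the 2 largest rises and falls among called genes with a mean log2 CPM of at least 3, and 7 fixed regulators (Tfam, Polrmt, Lrpprc, Slirp, Polg, Twnk and Ppargc1a). The genes and lists were chosen with earlier results of these data known.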

Additional observations from a re-analysis of the deposited data

How the results depend on the processing

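In tenotomy against contralateral tissue all 18 tested genes kept their direction under every alternative run in which they were tested. For mt-Te and mt-Ts1, the limit of the filter on low counts given above holds here too. The test against a 1.5-fold change called 8, beside 904 of 16028 features called lower. Leaving out 1 contralateral library gave 0 calls among members and among all features. With 1 contralateral or tenotomy library left out, the contralateral over tenotomy ratio of summed mRNA stayed between 5.44 and 6.56. Upper quartile scaling moved the median of all features to 0.11 and called 16, beside 2163 of 16028 features called lower. No paired analysis was possible because replicate numbers only follow accession order and the labels pair no samples.

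In tenotomy against uninjured tissue the title series as a covariate reversed 14 genes, to 0.19 (mt-Nd1), 0.21 (mt-Nd2), 0.12 (mt-Co1), 1.10 (mt-Co2), 0.26 (mt-Atp8, mt-Nd4 and mt-Nd5), 0.29 (mt-Atp6), 0.18 (mt-Co3), 0.88 (mt-Nd3), 0.13 (mt-Nd4l), 0.07 (mt-Nd6), 0.15 (mt-Cytb) and 0.50 (mt-Tp) on the log2 scale. Leaving out 1 library at a time gave between 0 and 16 calls there. The log2 values then ranged from -1.83 to 0.18 for mt-Nd1, -2.17 to 0.19 for mt-Nd2, -2.10 to 0.11 for mt-Co1, -1.36 to 1.03 for mt-Co2, -1.49 to 0.28 for mt-Atp8 and -1.74 to 0.19 for mt-Atp6. They ranged from -1.71 to 0.26 for mt-Co3, -1.17 to 0.86 for mt-Nd3, -2.02 to 0.15 for mt-Nd4l, -1.97 to 0.24 for mt-Nd4, -2.16 to 0.22 for mt-Nd5, -1.92 to 0.13 for mt-Nd6 and -2.04 to 0.13 for mt-Cytb. For the tRNAs they ranged from -1.62 to 0.39 (mt-Tp), -6.18 to 0.97 (mt-Te) and -4.71 to 3.61 (mt-Ts1). The positive ends are without uninjured replicate 2, and where a group is left with 1 library, it is assumed to vary like the others. In both comparisons with uninjured tissue the title series covariate also sets uninjured replicate 2 aside, as it is alone in its series.

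In contralateral against uninjured tissue DESeq2 called 1 gene and the title series covariate 16, with mt-Te at -1.49. Leaving out 1 library gave between 0 and 18 calls, with mt-Te between -0.17 and 3.63. The contralateral over uninjured ratio then lay between 1.29 and 3.86 for rRNA, 1.52 and 6.80 for mRNA, and 1.09 and 4.46 for tRNA. The uninjured over tenotomy ratio lay between 0.877 and 3.91 for mRNA and 0.773 and 3.18 for tRNA. The contralateral over tenotomy ratio of rRNA was 3.44 relative to the other nuclear counts. Between the uninjured libraries the ratio was 2.61 for rRNA and 3.87 for mRNA as a percent of all counts, 2.55 and 3.79 relative to the other nuclear counts, and 2.77 and 4.02 in TPM. Beyond the libraries left out, the cause of these moves was not tested.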
